A study of Mus musculus with 12 samples.

Results

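The 10 genes described here are targets and feedback regulators of the Wnt pathway: Axin2, Lef1, Tcf7, Nkd1, Notum, Sp5, Lgr5, Dkk1, Rnf43 and Wnt5a. They were chosen by symbol, by matching the RefSeq accession of each array probe to its mouse gene symbol, and the rule uses no measured value. All 10 had a probe, 13 probes in all among 55681 non-control probes. For 6 of them (Axin2, Tcf7, Nkd1, Notum, Rnf43 and Wnt5a) 1 probe was well above background on all 12 arrays, and these 6 were among the 24184 genes or transcripts tested. Lef1, Sp5, Lgr5 and Dkk1 did not pass the filter on dim probes.

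In canonical Wnt signalling a secreted Wnt ligand binds a Frizzled receptor and an LRP co-receptor, the Axin and APC complex stops marking β-catenin for destruction, and β-catenin enters the nucleus and acts through factors of the TCF and LEF family. Many genes switched on in this way turn the signal down again at different steps: Notum removes the lipid that a Wnt ligand needs, Dkk1 blocks the co-receptor, Rnf43 takes Frizzled receptors off the cell surface, Nkd1 binds Dishevelled and Axin2 rebuilds the destruction complex. In the oviduct Wnt signals take part in the formation of the Müllerian duct and in the upkeep of the epithelium.

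The RNA came from DKO172 cells, a female mouse line that the labels trace to a tumour of the fallopian tube. The cells carried the plasmid pLD-hygro-EnVM that codes for GFP (the control group), for DICER1 without a substitution (wild type, WT), or for its D1709N or G1809R form, and each of these 4 groups has 3 arrays. DICER1 cuts miRNA precursors, and the altered residues lie in the RNase IIIb domain, which releases the 5p miRNAs. DKO172 is known as a line that lacks its own Dicer1, which would hold for every group, control included, but its genotype is not in the labels. After transfection with 2 µg of plasmid the cells were re-plated at 24 h, selected for 84 h with 300 µg/ml of hygromycin and collected at 108 h, so each array measured a selected transfected population of 1 line. Whether replicates were separate cultures is not stated, and p-values then measure the spread between these arrays, which may be technical. WT was compared with GFP, each mutant with GFP and with WT, and the mutants with each other.

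Slide 1 carried the 4 arrays numbered 1 and slide 2 those numbered 2 and 3, and the slides were scanned on different occasions. Well above background were 68.1% to 82.7% of probes on the 4 arrays of slide 1 and 49.5% to 62.6% on the 8 arrays of slide 2, with WT replicate 1 at the top. Arrays with the same replicate number deviated together in all 18 pairs, so each test is given without and, where the call changes, with the replicate number as a block. Of 12 fallopian tube epithelium markers, 7 were well above background on all 12 arrays (Ovgp1, Krt7, Krt8, Krt18, Krt19, Wt1 and Emx2), while Epcam was on 11, Cdh1 on 10, Pax2 on 9 and Pax8 and Foxj1 on 4. So were 8 of 10 mesenchymal markers, 3 of 6 smooth muscle markers, 2 of 7 endothelial markers (Pecam1 and Kdr, with Cdh5, Tie1 and Emcn on none) and 3 of 7 leukocyte markers (Cd3e, Itgam and Csf1r). Fewer cells of a type and less RNA per cell cannot be told apart in such samples.

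TCF and LEF factors bind DNA through a short core, CTTTGA or CTTTGT, and the windows of 250 bases before the RefSeq gene start (build GRCm38.p6) were searched for both, on both strands. Of 32851 mouse windows, 13.8% held CTTTGA, 16.5% held CTTTGT and 27.6% held either. Of the 10 genes, 7 had an entry, with 12 windows, and 3 of these windows held a match. The Sp5 window (chr2:70474673-70474922, + strand) held 4 matches and the Dkk1 window (chr19:30549497-30549746, - strand) held 3, while the Sp5 probe was well above background on 1 array and the Dkk1 probe on none. The first Rnf43 window (chr11:87662837-87663086, + strand) and the Axin2 window (chr11:108920099-108920348, + strand) held 0. These 4 are shown, 5′ to 3′ on the gene's strand and from RefSeq, because they set windows with matches beside windows without, of 2 genes that were tested. Capitals mark either core or its reverse complement, TCAAAG or ACAAAG, and the third window with a match, which holds 3, lies before a later Lef1 start.
Sp5: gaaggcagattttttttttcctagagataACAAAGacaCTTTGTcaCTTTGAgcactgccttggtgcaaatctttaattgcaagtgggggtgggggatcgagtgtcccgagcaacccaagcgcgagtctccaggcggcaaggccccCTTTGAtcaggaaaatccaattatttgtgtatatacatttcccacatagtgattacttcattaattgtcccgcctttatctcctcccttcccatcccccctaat
Dkk1: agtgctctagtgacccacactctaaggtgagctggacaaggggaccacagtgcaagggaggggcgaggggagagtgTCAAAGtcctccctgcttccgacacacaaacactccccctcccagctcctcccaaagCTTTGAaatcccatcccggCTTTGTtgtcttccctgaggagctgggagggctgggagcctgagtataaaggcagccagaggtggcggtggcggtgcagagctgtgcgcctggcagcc
Rnf43: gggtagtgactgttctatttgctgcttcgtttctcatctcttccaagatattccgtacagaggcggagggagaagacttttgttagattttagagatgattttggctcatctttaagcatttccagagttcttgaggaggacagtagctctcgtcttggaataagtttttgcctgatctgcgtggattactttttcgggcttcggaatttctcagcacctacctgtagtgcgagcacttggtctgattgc
Axin2: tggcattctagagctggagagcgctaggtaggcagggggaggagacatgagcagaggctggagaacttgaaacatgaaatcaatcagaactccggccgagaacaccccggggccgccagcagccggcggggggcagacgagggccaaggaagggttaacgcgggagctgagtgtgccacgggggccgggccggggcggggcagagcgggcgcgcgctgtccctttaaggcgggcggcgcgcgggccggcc
Notum, Lgr5 and Wnt5a had no entry.

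Levels are the log2 of the processed spot intensity minus the log2 of the array's 75th percentile, so 0 is the level of that percentile and each unit is a doubling. The level of a probe depends on its sequence, so a level is compared between arrays and not between genes. The plot of detection by probe shows which of the 13 probes could be read on which array.

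**Figure D1:**
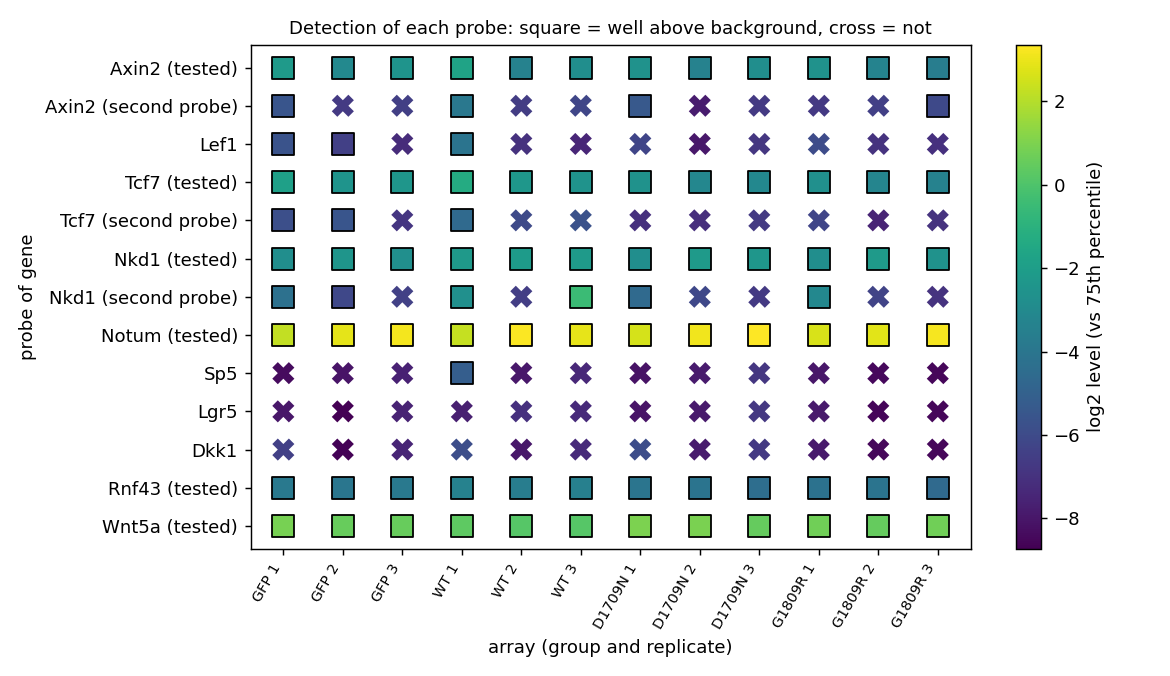
Detection of the 13 probes (rows) on the 12 arrays (columns). A square with a dark edge is a spot well above background, a cross is not, and colour is the log2 level relative to the array's 75th percentile, to be read along a row. The 6 tested probes have squares on all 12 arrays, and Lgr5 and Dkk1 have only crosses.

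Among the nuclear factors and targets, Tcf7 codes for TCF1, a DNA-binding partner of β-catenin. Its level was -1.92, -2.48 and -2.40 on the GFP arrays (replicates 1, 2 and 3; mean -2.27 ± 0.30, SD, n = 3) and -1.33, -2.32 and -2.51 on the WT arrays (-2.06 ± 0.63). With D1709N it was -2.60, -3.12 and -3.11 (-2.94 ± 0.30), and with G1809R -2.70, -3.21 and -3.38 (-3.10 ± 0.35). Every mutant array lay below every GFP and every WT array. Among all genes tested, the arrays of the groups did not overlap for 13.6% in D1709N against GFP, 11.1% in G1809R against GFP, 17.6% in D1709N against WT and 14.6% in G1809R against WT.

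Against WT, Tcf7 was lower by 1.85-fold with D1709N (log2 change -0.88 ± 0.32, SE) and by 2.06-fold with G1809R (-1.04 ± 0.32), in 3 of 3 same-number pairs. In limma's fit on the group alone neither passed, with adjusted p = 0.239 and 0.176. With the replicate block both passed, at adjusted p = 0.00453 and 0.00256. Within slide 1 the changes were -1.26 and -1.37, and within slide 2 they were -0.69 and -0.88. Against GFP, Tcf7 was lower by 0.67 with D1709N and by 0.83 with G1809R on the log2 scale, again in 3 of 3 pairs. The adjusted p was 0.726 and 0.653 on the group alone and 0.0329 and 0.0205 with the block. The call for D1709N against GFP was lost with the block and quantile normalization (adjusted p = 0.0603). WT against GFP gave 0.21 (adjusted p = 0.92, and 0.317 with the block), and -0.15 without WT replicate 1, the highest Tcf7 array. A second Tcf7 probe was well above background on GFP replicates 1 and 2 and WT replicate 1 and on no mutant array. Nor was it on GFP replicate 3 or on WT replicates 2 and 3. Its detection did not follow its level, since WT replicate 3 (-5.68) lay above GFP replicate 1 (-5.82). G1809R replicate 1 (-6.25) and D1709N replicate 3 (-6.69) lay above GFP replicate 3 (-6.87), so on this dim probe both mutants overlapped GFP.

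Lef1 codes for another partner of β-catenin. Its probe was well above background on the same 3 arrays, at -5.63, -6.42 and -4.07, and on none of the 6 mutant arrays. Nor was it on GFP replicate 3 or on WT replicates 2 and 3. G1809R replicate 1 (-5.97) and D1709N replicate 1 (-6.24) lay above GFP replicate 2, so no level difference between groups can be read from Lef1. Sp5, a zinc-finger factor induced by Wnt signals, was well above background on WT replicate 1 alone, at -5.16. The other 11 arrays of Sp5 lay between -8.52 and -6.82, so no level difference between groups can be read from it.

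Rnf43, the ligase that removes Frizzled receptors, was at -3.83, -3.98 and -3.84 on the GFP arrays (-3.89 ± 0.08, SD, n = 3) and at -3.40, -3.67 and -3.50 on the WT arrays (-3.52 ± 0.14). With D1709N it was at -4.04, -4.09 and -4.42 (-4.18 ± 0.21), and with G1809R at -4.17, -4.09 and -4.61 (-4.29 ± 0.28). The WT arrays were the highest, the GFP arrays next and the mutant arrays the lowest, with no overlap between WT and GFP or between either of them and a mutant. In WT against GFP, 19.9% of all genes tested did not overlap.

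Rnf43 fell by 0.77 ± 0.16 on the log2 scale with G1809R against WT, a 1.70-fold lower level in 3 of 3 pairs. The limma adjusted p was 0.0497 on the group alone, against 1.64% of all genes called in that comparison, and 0.00842 with the replicate block. It was the only one of the 6 genes called in any comparison without the block. D1709N against WT gave -0.66 ± 0.16 with adjusted p = 0.0799, and 0.0143 with the block. Within slides 1 and 2 the changes were -0.78 and -0.77 for G1809R and -0.65 and -0.67 for D1709N. The group-only call for G1809R was lost when any 1 of the 12 arrays was left out (adjusted p from 0.056 to 0.164) and with quantile normalization, which gave -0.50 (adjusted p = 0.677, and 0.0547 with the block). For D1709N against WT, quantile normalization with the block gave -0.38 (adjusted p = 0.117). After normexp background correction the changes against WT were -0.43 for G1809R and -0.35 for D1709N. That correction added an offset of 50 to every intensity, which by itself makes the log2 changes of dim probes smaller. The processed intensity of the Rnf43 probe ran from 49.5 to 115. WT against GFP was 0.36 ± 0.16 (adjusted p = 0.321, and 0.0995 with the block), and only 0.05 with the block and quantile normalization. D1709N and G1809R against GFP gave -0.30 and -0.41, with adjusted p = 0.77 and 0.681, and 0.233 and 0.136 with the block, and were -0.09 and -0.17 after normexp.

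Wnt5a codes for a ligand that signals largely without β-catenin. Its level was 0.90, 0.56 and 0.57 on the GFP arrays (0.68 ± 0.20, SD, n = 3) and 0.35, 0.15 and 0.18 on the WT arrays (0.23 ± 0.11). It was 0.97, 0.91 and 0.51 with D1709N (0.80 ± 0.25) and 0.74, 0.51 and 0.72 with G1809R (0.65 ± 0.13). The 3 WT arrays were the lowest of the 12, and the other groups overlapped one another.

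Wnt5a gave -0.45 ± 0.16 (SE) in WT against GFP, lower in 3 of 3 pairs, with limma adjusted p = 0.176 on the group alone and 0.0287 with the replicate block. D1709N against WT gave 0.57 ± 0.16, a 1.49-fold higher level with adjusted p = 0.112, and 0.0139 with the block. G1809R against WT gave 0.43 ± 0.16 with adjusted p = 0.27, and 0.044 with the block. Within slides 1 and 2 the changes against WT were 0.62 and 0.55 for D1709N and 0.39 and 0.45 for G1809R. Without WT replicate 1 the block gave adjusted p = 0.0857 for WT against GFP, 0.0464 for D1709N against WT and 0.123 for G1809R against WT. D1709N against GFP was 0.12 (adjusted p = 0.996).

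**Figure D2:**
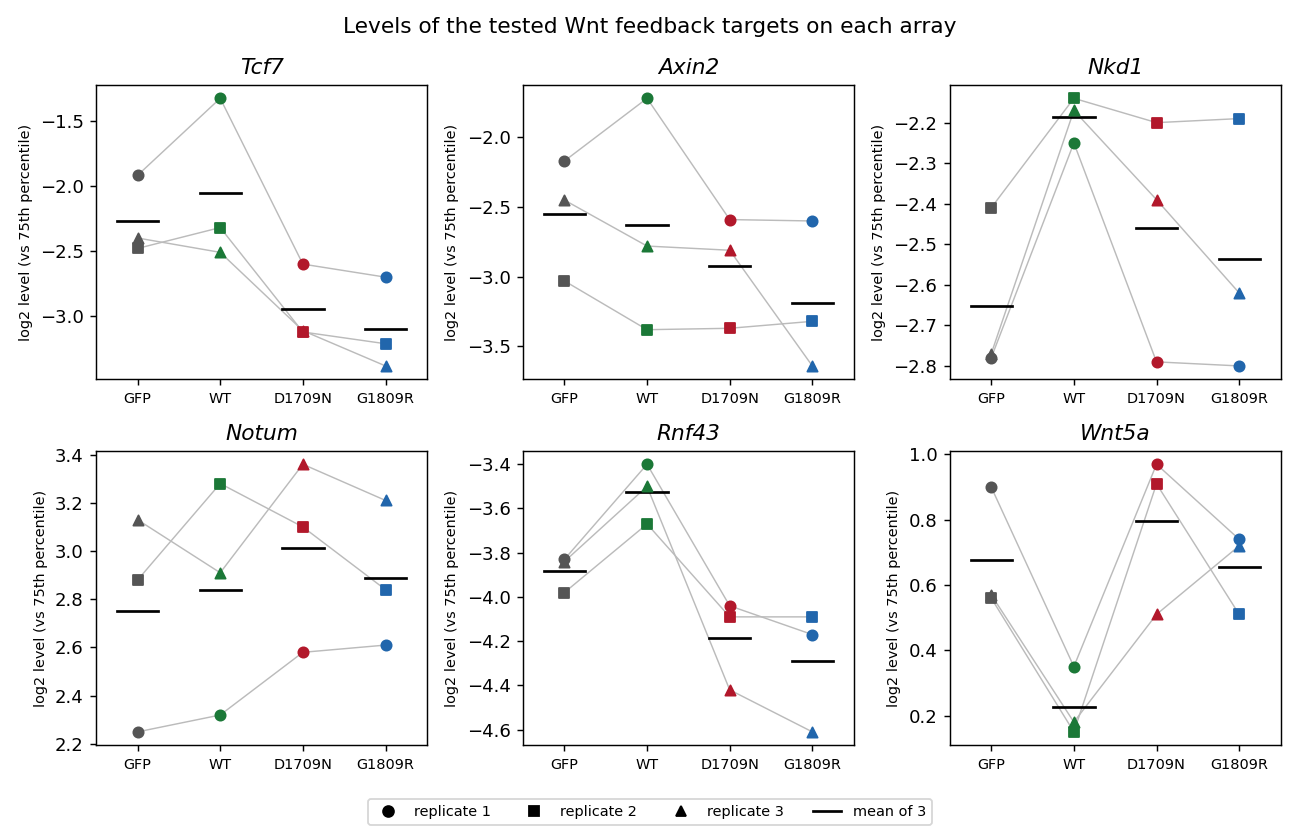
log2 level of the 6 tested genes relative to the array's 75th percentile, by group (each panel has its own vertical axis, which does not start at 0). Symbols are single arrays by replicate number, grey lines join arrays of 1 number, and bars are means of 3. The mutant arrays of Tcf7 and Rnf43 lie below all GFP and WT arrays, and the WT arrays of Wnt5a lie below all others.

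Nkd1, the Dishevelled-binding inhibitor, was at -2.78, -2.41 and -2.77 on the GFP arrays (-2.65 ± 0.21, SD, n = 3) and at -2.25, -2.14 and -2.17 on the WT arrays (-2.19 ± 0.05). It was at -2.79, -2.20 and -2.39 with D1709N (-2.46 ± 0.30) and at -2.80, -2.19 and -2.62 with G1809R (-2.54 ± 0.31). The WT arrays lay above the GFP arrays without overlap, and both mutants overlapped both other groups. WT against GFP gave 0.47 ± 0.20 (SE), higher in 3 of 3 pairs, with limma adjusted p = 0.285 and, with the replicate block, 0.0236. With the block the call was lost without WT replicate 1 (0.38, adjusted p = 0.0859) and with quantile normalization (0.32, adjusted p = 0.0844). The mutants against WT gave -0.27 for D1709N and -0.35 for G1809R, with adjusted p = 0.646 and 0.57, and 0.139 and 0.0828 with the block. A second Nkd1 probe was well above background on 6 of 12 arrays and ran from -6.94 to -0.51.

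Axin2, the inducible scaffold of the destruction complex and a widely used readout of β-catenin activity, was at -2.17, -3.03 and -2.45 on the GFP arrays (-2.55 ± 0.44, SD, n = 3). The WT arrays gave -1.72, -3.38 and -2.78 (-2.63 ± 0.84), and the D1709N arrays -2.59, -3.37 and -2.81 (-2.92 ± 0.40). With G1809R the levels were -2.60, -3.32 and -3.64 (-3.19 ± 0.53). WT replicate 1 was the highest array and G1809R replicate 3 the lowest, and all groups overlapped. Axin2 was lower than GFP in 3 of 3 pairs with each mutant, by 0.38 with D1709N and 0.64 ± 0.43 (SE) with G1809R on the log2 scale. The limma adjusted p was 0.989 and 0.994, and 0.361 and 0.159 with the replicate block, so no Axin2 change was called. G1809R against WT gave -0.56 (adjusted p = 0.764, and 0.15 with the block), with -0.88 within slide 1, -0.40 within slide 2 and, with the block and without WT replicate 1, -0.32.

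Notum, the secreted enzyme that inactivates Wnt ligands, was at 2.25, 2.88 and 3.13 with GFP (2.75 ± 0.45, SD, n = 3) and at 2.32, 3.28 and 2.91 with WT (2.84 ± 0.48). It was at 2.58, 3.10 and 3.36 with D1709N (3.01 ± 0.40) and at 2.61, 2.84 and 3.21 with G1809R (2.89 ± 0.31). All groups overlapped, and replicate 1 was the lowest array in each. Over the 6 comparisons its change ran from -0.12 to 0.26, with adjusted p from 0.937 to 1, and from 0.335 to 0.974 with the block. The largest, D1709N against GFP, was 0.26 ± 0.32 (SE).

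Lgr5, the R-spondin receptor that marks stem cells in several epithelia, was not well above background on any array, with levels from -8.73 to -6.75. Dkk1, the secreted co-receptor inhibitor, was likewise never well above background, from -8.64 to -5.89. Lgr5 and Dkk1 were thus not detectable at the sensitivity of these arrays in any group.

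Counting the 6 tested genes, WT against GFP had 0 called on the group alone, where 2.95% of all genes tested were called, and 1 higher (Nkd1) and 1 lower (Wnt5a) with the replicate block, where 17.8% were (9.18% higher and 8.6% lower). D1709N against GFP had 0 called against 0.0496%, and 1 lower (Tcf7) with the block against 4.25% (2.49% lower). G1809R against GFP had 0 called against 0.0124%, and 1 lower (Tcf7) with the block against 3.74% (1.98% lower). D1709N against WT had 0 called against 1.66%, and G1809R against WT had 1 lower (Rnf43) against 1.64% (0.604% lower). With the block each of these last comparisons had 2 lower (Tcf7 and Rnf43) and 1 higher (Wnt5a), against 15.5% of all genes for D1709N (7.12% higher and 8.42% lower) and 12.7% for G1809R (6.36% higher and 6.31% lower). At an unadjusted p under 0.05, 3, 0, 2, 3 and 3 of the 6 genes passed in these comparisons in the same order, against 15.4%, 7.21%, 6.64%, 13.7% and 12.2% of all genes. Groups that did not overlap were seen for 3 of the 6 genes in WT against GFP, 2 in each mutant against GFP and 3 in each mutant against WT. The shares of all genes without overlap were 19.9% in WT against GFP, 13.6% and 11.1% in D1709N and G1809R against GFP, and 17.6% and 14.6% against WT.

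The median log2 change of the 6 genes was 0.15 in WT against GFP, -0.09 and -0.21 in D1709N and G1809R against GFP, and -0.29 and -0.46 in D1709N and G1809R against WT. Over all genes tested these medians were 0.04, 0.03, 0.05, -0.01 and 0.01. Comparisons with WT as the reference share the same 3 WT arrays, and those with GFP the same 3 GFP arrays, so their values stand side by side and are not independent. Leaving out WT replicate 1, the array with most probes above background, the block called 0, 1, 1, 3 and 2 of the 6 genes in the 5 comparisons, against 13.1%, 5.22%, 4.47%, 9.82% and 8.34% of all genes.

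**Figure D3:**
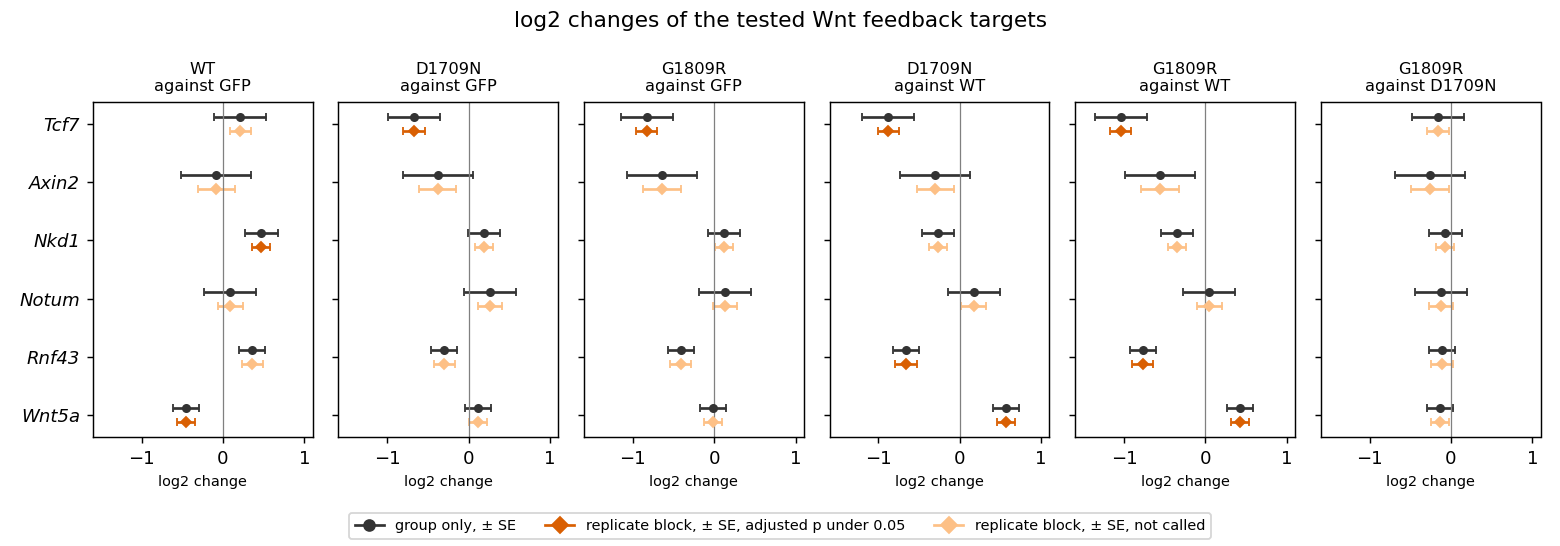
log2 changes of the 6 tested genes in the 6 comparisons. Circles carry the SE of the fit on the group alone and diamonds that of the fit with the replicate block, dark orange where the adjusted p was under 0.05. Tcf7 and Rnf43 lie left of 0 in both mutants against WT, Wnt5a lies right of 0, and no gene is called between the mutants.

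G1809R against D1709N had 0 of the 6 genes called, with limma adjusted p of 1 for each on the group alone and 0.974 with the block. No gene passed an unadjusted p under 0.05, and the arrays of the mutants overlapped for each of the 6, where 2.46% of all genes did not overlap. In this comparison 0 of 24184 genes were called in either fit, and 65 (0.269%) had an unadjusted p under 0.05. The changes of the 6 genes had a median of -0.13. These p-values do not show that the mutants act alike.

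The other genes of the pathway came from a list of 108, of which 84 were tested. WT against GFP had 1 higher and 1 lower on the group alone, and 13 higher and 9 lower with the replicate block. For all genes tested these shares were 2.95% on the group alone and, with the block, 9.18% higher and 8.6% lower. D1709N and G1809R against GFP had 0 called on the group alone, and with the block 1 higher and 3 lower, and 1 higher and 4 lower, where 4.25% and 3.74% of all genes were called. D1709N against WT had 2 lower on the group alone, and 3 higher and 15 lower with the block. G1809R against WT had 1 lower, and 3 higher and 14 lower with the block. With the block, 7.12% of all genes were higher and 8.42% lower in D1709N against WT, and 6.36% and 6.31% in G1809R against WT. The medians of the 84 changes were 0.00, -0.06, -0.07, -0.09 and -0.11 in that order.

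Among receptors, 17 of 19 were tested. Fzd4, a Frizzled receptor that also binds Norrin, rose by 1.91-fold in WT against GFP (0.94 ± 0.15, SE; limma adjusted p = 0.0117), from 0.47 ± 0.11 to 1.40 ± 0.22 (SD, n = 3). It was lower with D1709N than with WT by 0.71 on the log2 scale (adjusted p = 0.0455), and G1809R against WT gave -0.56 (0.107, and 0.0289 with the block). The D1709N call was lost when any 1 of the 12 arrays was left out, and the call in WT against GFP when GFP replicate 1 (adjusted p = 0.0551), GFP replicate 3 (0.0591) or WT replicate 2 (0.0526) was left out. Lgr4, an R-spondin receptor related to Lgr5, was called 1.82-fold lower in WT against GFP (-0.87 ± 0.16; adjusted p = 0.0243). Its size depended on the scaling, with -1.50 under quantile normalization (adjusted p = 0.294) and -0.30 after normexp background correction (0.267), and 5 of the 12 arrays ended the call when left out.

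Among secreted and membrane inhibitors, 9 of 15 were tested, and 4 were lower in each mutant against WT with the replicate block, where 8.42% (D1709N) and 6.31% (G1809R) of all genes were lower. Frzb, a secreted decoy that binds Wnt ligands, was at 1.33 ± 0.26 with WT, 0.12 ± 0.22 with D1709N and -0.10 ± 0.41 with G1809R (SD, n = 3). It fell by 1.20 ± 0.22 (SE) with D1709N and by 1.43 ± 0.22 with G1809R against WT on the log2 scale, with limma adjusted p = 0.0318 and 0.0167. Leaving out 1 array ended the D1709N call in 9 of 12 fits and the G1809R call in 4 (adjusted p up to 0.126 and 0.0775). Kremen2, a receptor for Dkk1, gave -2.10 ± 0.57 in G1809R against GFP (adjusted p = 0.446, and 0.0191 with the block), and -1.14 after normexp background correction.

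Of 18 other Wnt ligands 12 were tested, and with the block 4 were higher and none lower in WT against GFP, and 1 was higher and 4 lower in each mutant against WT. The shares of all genes are those given above for the block. Wnt6 gave 1.45 ± 0.54 in WT against GFP, and -1.83 and -2.12 in D1709N and G1809R against WT, with adjusted p = 0.219, 0.147 and 0.1, and 0.00283, 0.00169 and 0.000986 with the block. Wnt6 was well above background on 2 of 3 D1709N arrays. Wnt9a moved the other way, with 0.61 and 0.48 in D1709N and G1809R against WT (adjusted p = 0.061 and 0.139, and 0.00723 and 0.0193 with the block).

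Of 7 genes of Wnt secretion and agonists 3 were tested, and with the block 1 was higher in WT against GFP and 1 lower in G1809R against WT, Porcn in both. With the block, 9.18% of all genes were higher in WT against GFP and 6.31% lower in G1809R against WT. In the cytoplasmic transduction group all 20 genes were tested and none was called on the group alone, and with the block 2 were higher and 3 lower in WT against GFP. Of all genes, 9.18% were higher and 8.6% lower there. Of 10 nuclear factors tested, with the block 2 were lower in WT against GFP and in D1709N against GFP (Bcl9 and Tle4 in both). Of all genes, 8.6% and 2.49% were lower in these 2 comparisons. In G1809R against GFP 1 was lower, Bcl9, a β-catenin cofactor (-0.52 ± 0.16; adjusted p = 0.517, and 0.0149 with the block), where 1.98% of all genes were lower. Of 13 other targets tested, with the block 2 were higher and 1 lower in WT against GFP, where 9.18% and 8.6% of all genes were. Against WT, 1 was higher and 2 lower with D1709N (7.12% and 8.42% of all genes), and 1 and 3 with G1809R (6.36% and 6.31%). Ccnd1 gave 1.02 in WT against GFP and -0.92 in D1709N against WT, with limma adjusted p = 0.512 and 0.597, and 0.00163 and 0.00329 with the block. Cdx1, a homeobox gene of the gut, gave 1.04, 1.05 and 1.25 in WT, D1709N and G1809R against GFP, with adjusted p = 0.15, 0.474 and 0.446, and 0.00143, 0.00732 and 0.00807 with the block. After normexp background correction these changes were 0.58, 0.64 and 0.72. Ccn4, a secreted matricellular protein, gave -1.30 ± 0.49 in WT against GFP (adjusted p = 0.215, and 0.000924 with the block). In D1709N against WT it gave 0.75 ± 0.49 (limma adjusted p = 0.588, and 0.0101 with the block).

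**Figure D4:**
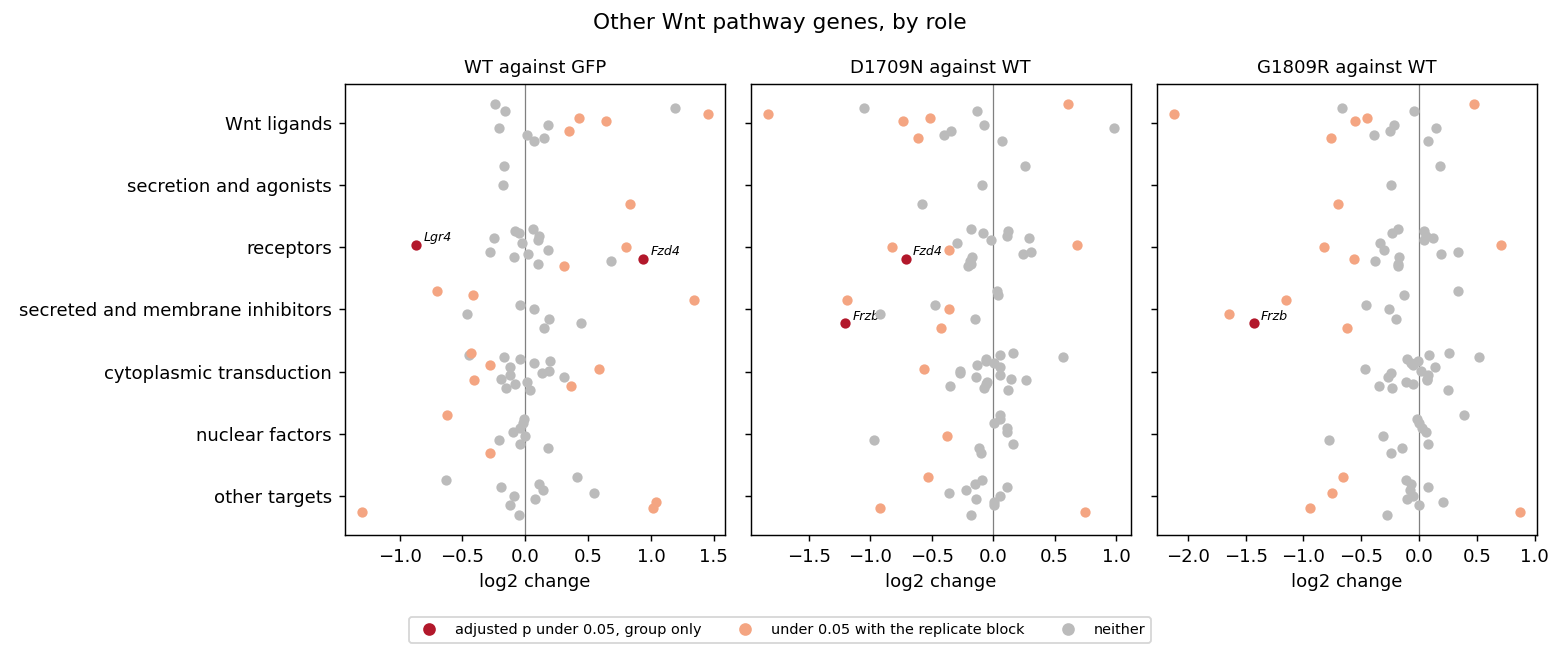
log2 change of the 84 other tested Wnt pathway genes by role (rows) in WT against GFP, D1709N against WT and G1809R against WT, with 1 point a gene (the 3 horizontal axes differ). Dark red points passed an adjusted p of 0.05 on the group alone and are named, light red points only with the replicate block. Frzb is named in both mutant panels, at -1.20 and -1.43.

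Markers of other cells were measured beside these genes. The summed linear level of the 6 smooth muscle markers, relative to the 75th percentile, ran from 34.1 to 141 on the GFP arrays, 76.1 to 181 on WT, 20.4 to 119 on D1709N and 23.2 to 89.7 on G1809R, and their part in the Tcf7 and Rnf43 values was not tested. Most of this sum came from the Tagln probe, whose group means ran from 5.23 to 6.61 on the log2 scale. No other of the 6 probes had a group mean above 0.93. No smooth muscle, endothelial, leukocyte or fallopian tube epithelium marker was called in limma's fit on the group alone. Of the 10 mesenchymal markers tested, Pdgfra was lower in WT against GFP (adjusted p = 0.0074) and Pdgfrb in D1709N against WT (0.0342).

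As a description of pattern over the 12 arrays, which share slides, the genes with a RefSeq symbol most like Axin2 were Dlx2 (Pearson r = 0.973), Nr3c2 (0.941) and Ptpru (0.94). Those most like Wnt5a, the gene of smallest p among the 6 in WT against GFP on the group alone (with the block it was Nkd1), were Poc1a (0.921), Hcfc1 (0.919) and Dna2 (0.918).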

How the data were processed

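Single-colour Agilent mouse arrays were read by version 11.0.1.1 of Agilent Feature Extraction, per the submitters' processing notes. The deposited intensity of a spot is its processed signal, background-subtracted and not scaled between arrays, per the file headers. The deposited flags and other columns mark spots well above background or saturated (0 were). The authors' deposited value table holds log2 signals of unstated scaling and served as an alternative. Its changes lay close to those under quantile normalization, such as -0.51 and -0.50 for Rnf43 in G1809R against WT. These alternatives are therefore not separate checks.

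Levels are log2 intensities minus that of the array's 75th percentile. The 3671 control spots and 287 probes with outlier flags were left out. Kept were the 33024 probes that stood well above background on all arrays of 1 group or more, and the brightest stood for its gene, of which 9452 of 24184 had no RefSeq symbol. Genes were fitted with limma 3.58.1 in R 4.3.3 (package data.table, version 1.17.8), all 12 arrays by group, two-sided, with Benjamini-Hochberg adjustment over all genes of a comparison, called under 0.05. The scripts were tested on simulated data with independent noise on each array. That simulation held no slide or replicate effect, so it does not cover deviations shared by arrays of the same replicate number.

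The labels give groups the same replicate numbers. Deviations from group means correlated in all 18 same-number pairs (r from 0.601 to 0.853), against 0.0163 to 0.197 for other pairs of 1 slide and -0.675 to -0.448 across slides, so the numbers pair the arrays; the fit with the number as a block is given beside the other. Alternatives were other scalings, no filter on dim probes, the mean of a gene's probes, the slide, fewer arrays and only the 2 groups compared. Among them, normexp background correction used the median spot signal and added an offset of 50, which makes log2 changes of dim probes smaller. The number of arrays limits the precision. Members and lists were chosen with earlier results of these data known. Named are all 10 members and, of other pathway genes, those called and a selection of those of smallest p in some role groups; of the markers, a selection is named.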

Additional observations from a re-analysis of the deposited data

Results flagged for a closer look

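Some probes that the comparisons do not use were well above background, and more than 2-fold above the highest GFP array, on single arrays. Smaller excesses over GFP are not listed, such as the second Tcf7 probe on WT replicate 1 (-4.58, against -5.56 on GFP replicate 2). Sp5 and Lef1 did not pass the filter on dim probes, and Axin2 and Nkd1 were tested on another probe. Sp5 was at -5.16 on WT replicate 1 and not well above background on any GFP array, so no fold is given. Lef1 was at -4.07 on the same array, 2.93-fold above the highest GFP array (-5.63). The second Axin2 probe was at -3.91 there, 3.07-fold above (-5.52). The second Nkd1 probe was at -2.73 on WT replicate 1, at -3.08 on G1809R replicate 1 and at -0.51 on WT replicate 3, against -4.26 on the highest GFP array, or 2.89-fold, 2.27-fold and 13.5-fold above. On WT replicate 3 the tested Nkd1 probe was at -2.17, next to -2.25 and -2.14 on the other WT arrays, so the 2 probes disagree there. Of the 6 values, 4 are from WT replicate 1, the array with most probes well above background (82.7%). Whether that array's detection accounts for them was not tested.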

How the results depend on the processing

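The number of the 6 tested genes called was recomputed under 25 alternatives, of which those that join the replicate block with another change were chosen after seeing the data. In WT against GFP it went from 0 to 2 with the replicate block, 1 with the slide as a factor, and, with the block joined to quantile normalization, normexp background correction or the deposited value table, to 1, 2 and 1. D1709N against GFP went from 0 to 1 with the block, and to 1 with the block and normexp, the value table or no WT replicate 1. G1809R against GFP went from 0 to 1 with the block and in all 4 joined fits. D1709N against WT went from 0 to 3 with the block, 3 with the slide, and 2, 3, 2 and 3 in the joined fits (quantile, normexp, value table, no WT replicate 1). G1809R against WT went from 1 to 0 with quantile normalization, normexp, the value table, no filter on dim probes, the mean of a gene's probes, only the 2 groups compared or slide 2 alone, and when leaving out any 1 array (0 to 0). It went to 3 with the block, 2 with the slide, and 2, 3, 3 and 2 in the joined fits. Counts of all genes moved too: in WT against GFP 713 were called on the group alone, 4300 with the block, 2112 with the slide and 3 with only the 2 groups compared. In G1809R against WT the counts of all genes were 397, 3064, 1206 and 0 (limma; 2089 at an unadjusted p under 0.05), and 11 with slide 2 alone, 68 without the filter, and 329, 376, 360 and 378 with quantile normalization, normexp, the value table and the mean of probes. The joined fits called 13.1% to 18.9% of all genes in WT against GFP, 3.9% to 5.22% and 3.14% to 4.47% in D1709N and G1809R against GFP, and 9.82% to 14.2% and 8.34% to 13.8% in D1709N and G1809R against WT. In D1709N against WT the block called 3759 genes and the slide 1407. G1809R against D1709N stayed at 0 in all 25. The log2 change of Tcf7 in WT against GFP turned from 0.21 to -0.15 without WT replicate 1, with adjusted p = 0.878 (leaving out 1 array gave -0.15 to 0.44). The causes of these moves were not tested. The group-only call of Rnf43 is near the threshold, and its probe was the dimmest of the 6 tested. Its processed intensity ran from 49.5 to 115, a range that holds the 61.6 of the Lef1 probe on WT replicate 1. Weak signal thus limits Rnf43 too, beside Lef1, Sp5, Lgr5 and Dkk1, which were not tested.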
